A study of Mus musculus with 28 samples.

Results

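The 34 genes described here are the transcription factor NRF2 (gene Nfe2l2), its sensor Keap1, classical NRF2 target genes and the enzymes that make, recycle or use glutathione. They were taken as a list of gene symbols, and 34 of 34 were found among the 22187 genes of the deposited table. By role the list held 2 regulators, 4 detoxification and stress enzymes, 4 genes of glutathione synthesis and cystine import, 8 redox enzymes and 16 glutathione S-transferase (GST) genes, namely 4 alpha, 5 mu, 2 pi, 3 theta and 2 microsomal. RNA sequencing was done on 28 mouse liver libraries, 14 from tumors and 14 from non-tumor liver, with expression given as CPM, read counts scaled to the same total in every library. In dHEP mice both Il17ra alleles are floxed and an Alb-Cre transgene deletes the gene in cells with albumin promoter activity, chiefly hepatocytes, so other liver cells keep the IL-17 receptor. FF mice carry the same floxed alleles with no Cre named in their labels. Every mouse was C57BL/6 and had received the liver carcinogen diethylnitrosamine (DEN), 25 mg per kg at 2 weeks of age. They were then kept for 18 weeks on an alcohol diet, named both a high-fat diet with alcohol and isocaloric liquid ethanol in the labels, or on chow. The groups were dHEP alcohol (4 tumors and 4 non-tumor livers), FF alcohol (4 and 4), dHEP chow (3 and 3) and FF chow (3 and 3). Libraries are named below by the animal number in their labels, which pairs tumor and non-tumor liver for 11 animals; in FF chow the numbers differ between the tissues. No group went without DEN, and animal numbers do not run across diets, so diet and the cohort of animals cannot be told apart.

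NRF2 is held in the cytoplasm by KEAP1, which hands it to a ubiquitin ligase for destruction; oxidants and electrophiles modify KEAP1 and let NRF2 reach the nucleus. There it pairs with small MAF proteins on antioxidant response elements and raises genes for glutathione synthesis, quinone and peroxide reduction and GST conjugation. In liver this program handles reactive drug and alcohol metabolites, and GST genes of several classes are also among the most abundant transcripts of normal hepatocytes. Activity of NRF2 is set largely at the protein level, so mRNA of Nfe2l2 and of its targets need not move together.

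Depth ran from 9570000 to 17820000 reads per library, as estimated from the spacing of the low values. Il17ra lay at 8.34 to 13.0 CPM in the 7 dHEP non-tumor livers, against 14.7 to 31.0 CPM in the 7 FF non-tumor livers, without overlap. In tumors it spanned 8.38 to 29.4 CPM in dHEP mice, against 20.8 to 33.9 CPM in FF mice, and tumors dHEP-520 (28.2 CPM) and dHEP-155 (29.4 CPM) lay within the FF range. Hepatocyte markers (7 genes) summed to 79751 to 170573 CPM in tumors, against 39638 to 81144 CPM in non-tumor liver (albumin, Alb, made 59.6% to 85.0% of a library's sum). In dHEP alcohol, FF alcohol, dHEP chow and FF chow tumors 2, 2, 1 and 1 of the 7 were called higher and 1, 1, 2 and 2 lower, with a median log2 fold change of -0.23, -0.34, -0.47 and -0.66, so the higher sum in tumors is not a rise of the list as a whole. Tumor markers (4 of 5 found) summed to 30.0 to 2046 CPM in tumors, against 9.33 to 263 CPM in non-tumor liver, the highest non-tumor sums being those of FF-523 and FF-581, at 263 and 204 CPM. The non-tumor library FF-158 stood apart on sex-biased liver genes, with 1293 CPM of the 5 female-biased and 572 CPM of the 6 male-biased genes, and tumor FF-168 held 554 CPM of the male-biased genes; the labels give no sex.

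Promoter windows from RefSeq (GRCm38.p6, 250 bases before to 50 after a start site) were matched by symbol for 29 members, with 40 windows; Hmox1, Gclc, Gsr, Gsta4 and Gstt2 had no entry. The windows were searched on both strands for the antioxidant response element core, spelled TGACNNNGC or TGAGNNNGC; the second spelling was added after matches to the first had been seen. Windows are shown for the 6 members that passed the tumor test in at least 1 group and hold a match, which stands in capitals: Srxn1 at chr2:152105274-152105573 (+ strand), Nfe2l2 at chr2:75704614-75704913 (- strand), Slc7a11 at chr3:50443564-50443863 (- strand), Gclm at chr3:122245307-122245606 (+ strand), Mgst1 at chr6:138140277-138140576 (+ strand) and Gsta3 at chr1:21240335-21240634 (+ strand).
Srxn1: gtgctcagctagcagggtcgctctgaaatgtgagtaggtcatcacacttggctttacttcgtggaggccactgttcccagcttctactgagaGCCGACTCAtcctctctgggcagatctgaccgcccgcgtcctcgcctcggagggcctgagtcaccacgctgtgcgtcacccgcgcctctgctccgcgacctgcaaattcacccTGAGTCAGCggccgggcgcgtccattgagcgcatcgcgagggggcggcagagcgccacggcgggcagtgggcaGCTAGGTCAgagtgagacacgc
Nfe2l2: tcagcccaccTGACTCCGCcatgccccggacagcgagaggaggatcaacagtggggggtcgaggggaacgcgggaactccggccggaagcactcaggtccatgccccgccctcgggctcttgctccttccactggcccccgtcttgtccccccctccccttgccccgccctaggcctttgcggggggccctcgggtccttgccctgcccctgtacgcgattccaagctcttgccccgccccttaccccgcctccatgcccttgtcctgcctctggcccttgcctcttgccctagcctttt
Slc7a11: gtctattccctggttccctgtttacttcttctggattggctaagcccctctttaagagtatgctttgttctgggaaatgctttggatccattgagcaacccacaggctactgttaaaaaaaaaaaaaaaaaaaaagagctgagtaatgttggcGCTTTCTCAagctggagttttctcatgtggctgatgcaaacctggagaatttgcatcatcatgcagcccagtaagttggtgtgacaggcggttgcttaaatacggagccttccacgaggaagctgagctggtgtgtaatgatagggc
Gclm: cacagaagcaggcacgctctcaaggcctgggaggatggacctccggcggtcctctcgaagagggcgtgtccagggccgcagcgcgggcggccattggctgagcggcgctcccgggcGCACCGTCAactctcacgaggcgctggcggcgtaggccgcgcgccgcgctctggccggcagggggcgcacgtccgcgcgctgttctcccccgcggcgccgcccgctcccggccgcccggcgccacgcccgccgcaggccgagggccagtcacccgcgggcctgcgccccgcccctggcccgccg
Mgst1: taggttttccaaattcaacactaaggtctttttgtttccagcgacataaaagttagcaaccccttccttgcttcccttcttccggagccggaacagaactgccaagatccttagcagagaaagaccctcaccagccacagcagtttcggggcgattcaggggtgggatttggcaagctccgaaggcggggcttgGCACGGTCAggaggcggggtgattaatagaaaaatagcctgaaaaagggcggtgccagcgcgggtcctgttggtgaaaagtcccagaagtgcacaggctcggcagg
Gsta3: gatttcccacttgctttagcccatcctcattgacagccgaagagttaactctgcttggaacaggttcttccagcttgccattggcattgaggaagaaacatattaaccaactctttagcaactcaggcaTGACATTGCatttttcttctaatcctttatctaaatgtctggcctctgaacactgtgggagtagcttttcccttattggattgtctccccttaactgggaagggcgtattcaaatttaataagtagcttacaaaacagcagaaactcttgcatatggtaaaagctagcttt
Srxn1 holds 3 matches and each of the other 5 windows holds 1. A match to either spelling was found in 27.5% of member windows, against 27.8% of all 32851 RefSeq windows, so the core alone did not set the members apart. TGACNNNGC was in 17.5% of member windows, against 12.4% of all windows, and TGAGNNNGC in 15.0%, against 17.6%. The longer string TGAGTCAGC or TGACTCAGC, chosen after its matches were seen, was in 4 of 40 member windows, or 10% (Srxn1, Prdx1, Gstp1 and Gstp2). It was in 0.822% of all windows. The Gstp1 and Gstp2 windows read alike around the match, so they do not count as independent matches. The string contains TGAGTCA or TGACTCA, which is also the AP-1 site. These matches describe letters in the window and were not measured as binding.

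Per kilobase of exon, the most abundant members in non-tumor liver were Mgst1 (median 1500.3 CPM per kb), Gstm1 (1055), Gpx1 (954), Gstp1 (791) and Gsta3 (289 CPM per kb). In tumors the order was Gstm1 (805), Gstp1 (508), Mgst1 (346), Gpx1 (242) and Prdx1 (226 CPM per kb). Slc7a11 was among the lowest, with a median of 1.27 CPM per kb in tumors, against 0.0602 CPM per kb in non-tumor liver. Gpx2 was lower still and was listed at 0 in 8 of 14 non-tumor libraries. Some members share sequence with near-identical genes: of 50-base windows of the longest coding transcript, 89.7% of Gsta1, 72.6% of Gstp2, 64.2% of Gsta2, 62.3% of Gstp1 and 61.7% of Gpx4 also occur in other genes, and 28.8% of Gstm3, 26.0% of Gstt3 and 23.1% of Gstm1 do. Values of these genes are uncertain to the extent that reads were split among copies.

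**Figure D1:**
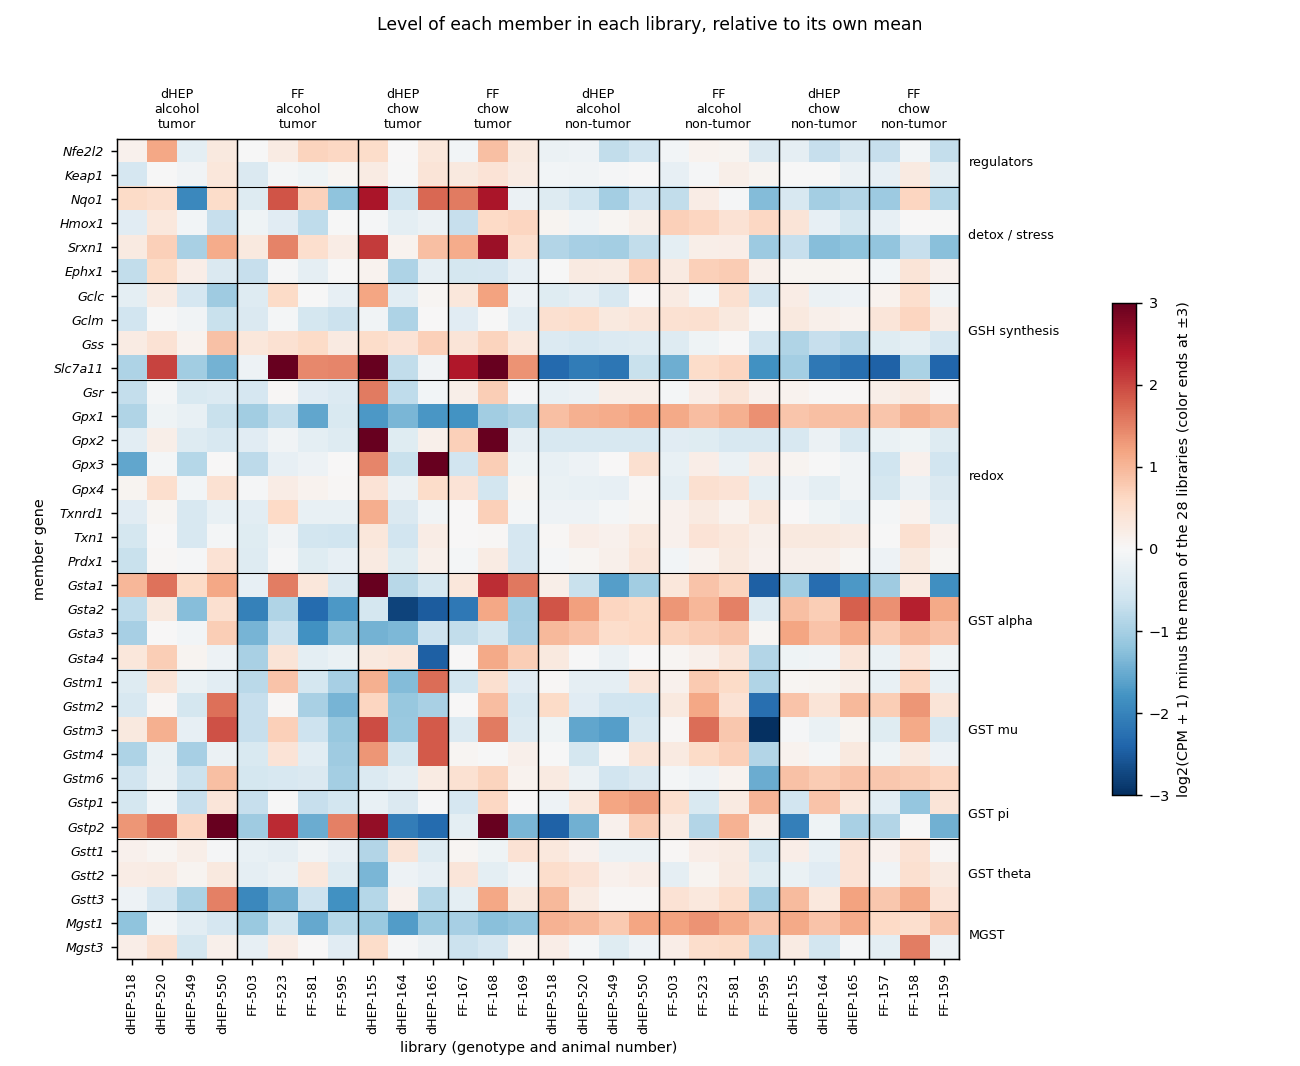
Each row is a member gene and each column a library, ordered by tissue, diet and genotype; color gives log2(CPM + 1) minus the gene's mean over the 28 libraries, with the color scale ending at 3 in either direction. Gpx1, Mgst1, Gsta2 and Gsta3 were low across most tumor columns, while Slc7a11, Srxn1 and Nqo1 varied widely from tumor to tumor.

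Tumors differed from non-tumor liver in a minority of the members, and in both directions. With adjusted p below 0.05 over 13503 genes (limma on log2(CPM + 1), Benjamini-Hochberg), 6 of 34 members changed in dHEP alcohol (2 higher, 4 lower), 10 in FF alcohol (1 higher, 9 lower), 7 in dHEP chow (2 higher, 5 lower) and 9 in FF chow (4 higher, 5 lower). Of all genes tested, 20.4% were called in dHEP alcohol, 24.6% in FF alcohol, 27.9% in dHEP chow and 30.8% in FF chow. By direction, 12.9%, 13.9%, 17.2% and 21.2% of all genes were called higher and 7.54%, 10.6%, 10.7% and 9.55% lower in these groups, so in FF alcohol 1 of 34 members stood against the first share and 9 of 34 against the second. The median log2 fold change of the members was -0.10, -0.23, 0.20 and 0.14 in these groups, against 0.085, 0.052, 0.14 and 0.16 over all genes. Gpx1, Mgst1 and Gsta3 fell and Gss rose in all 4 groups; Gclm and Gsta2 fell in 3, Nfe2l2 and Srxn1 rose in 2, and 20 members passed in none; with the animal as a block, 7 of these 20 passed in at least 1 group. Tumor and non-tumor values did not overlap for 7 members in dHEP alcohol, 10 in FF alcohol, 13 in dHEP chow and 10 in FF chow, against 21.2%, 28.3%, 38.5% and 46.3% of all genes. That block left 33 members to test. In dHEP alcohol 8 passed, 5 higher and 3 lower (Srxn1, Gsta1, Gstm3 and Gstp2 gained, Nfe2l2 and Gsta3 lost), against 12.8% of all genes. In FF alcohol 14 passed, 3 higher and 11 lower (Gsr, Gstm4, Slc7a11 and Srxn1 gained), against 35.2%. In dHEP chow 13 passed, 6 higher and 7 lower (Nfe2l2, Nqo1, Slc7a11, Gsta1, Gstm2 and Gstt3 gained), against 17.2%. The dHEP chow count also moved to 18 without tumor dHEP-164 and to 11 without tumor dHEP-165.

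**Figure D2:**
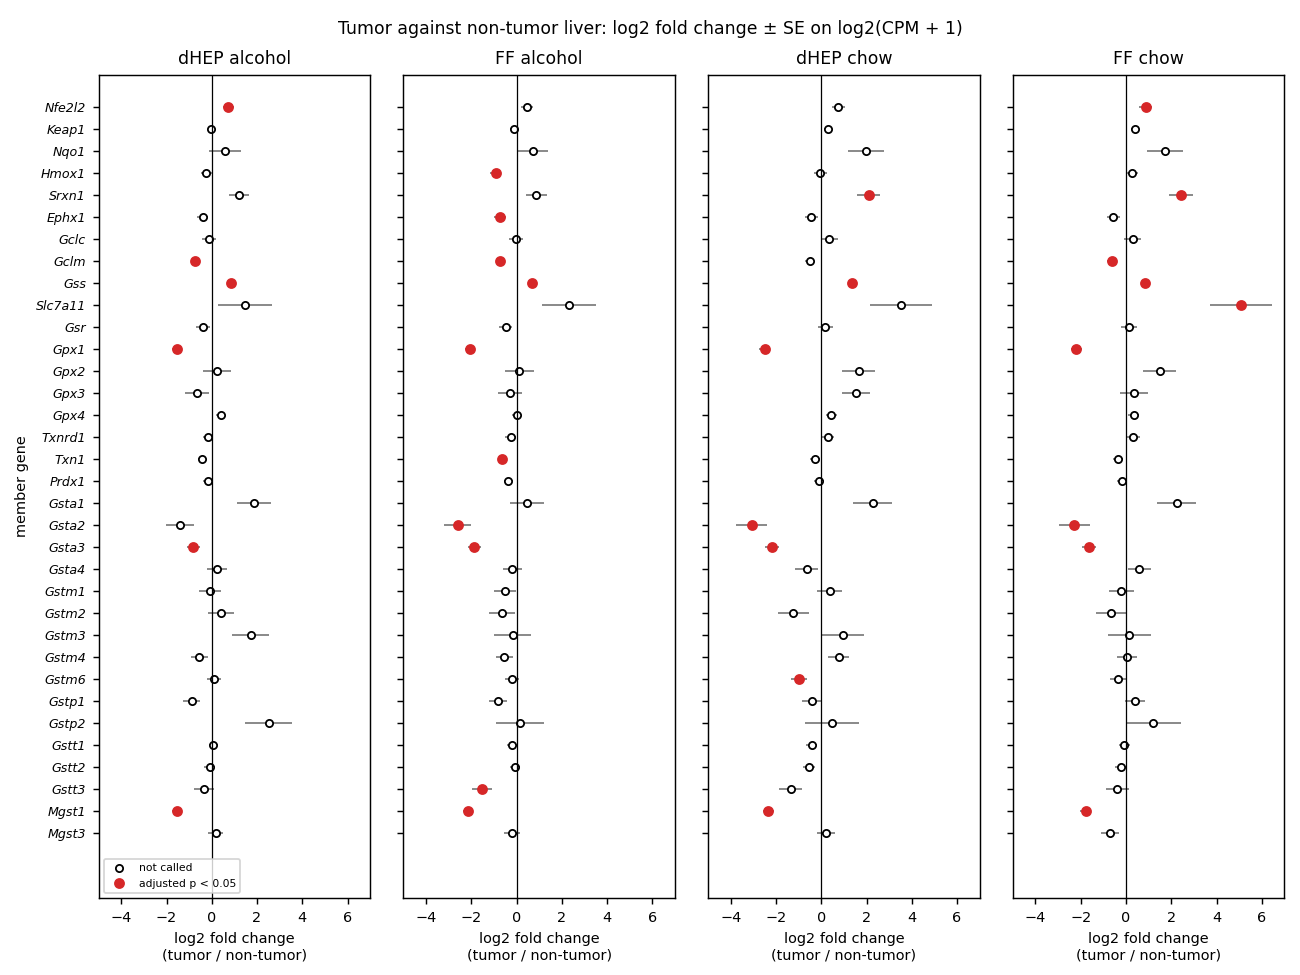
Log2 fold change of tumor against non-tumor liver on log2(CPM + 1), with standard errors, for each of the 34 members in the 4 groups; filled points passed an adjusted p of 0.05 over all genes. Gpx1, Mgst1 and Gsta3 lie left of 0 and Gss right of 0, filled, in each panel, and Slc7a11 has the widest error bars.

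Of the regulators, Nfe2l2 itself rose in dHEP alcohol and FF chow tumors. Nfe2l2 measured 98.7, 204, 73.4 and 112 CPM in dHEP alcohol tumors, against 80.3, 81.8, 53.4 and 60.1 CPM in dHEP alcohol non-tumor liver (log2 fold change 0.73 ± 0.25, adjusted p = 0.042). Nfe2l2 in FF chow tumors was 86.1, 169.7 and 111 CPM, against 55.7, 85.2 and 54.9 CPM in FF chow non-tumor liver (log2 fold change 0.87 ± 0.29, adjusted p = 0.028). Tumor dHEP-549 of the dHEP alcohol group lay within the range of the non-tumor livers, and in FF chow every tumor lay above every non-tumor liver. In FF alcohol the log2 difference was 0.46 ± 0.25 and in dHEP chow 0.76 ± 0.29, both short of the threshold (adjusted p = 0.19 and 0.057), though the dHEP chow difference passed with the animal as a block (0.034). In each of the 11 animals with both tissues the tumor held more Nfe2l2 than the non-tumor liver. The dHEP alcohol call was lost without tumor dHEP-520 (0.198), tumor dHEP-550 (0.0665), non-tumor library dHEP-549 (0.127) and non-tumor library dHEP-550 (0.0988), and with no filter on low values (0.0622) and with the animal as a block (0.0513), with a range of 0.0108 to 0.198 over 12 alternatives. The FF chow call was lost without tumor FF-168 (0.163), non-tumor library FF-157 (0.101) and non-tumor library FF-159 (0.105), and without tumors dHEP-155 and FF-168 together (0.156), with a range of 0.0155 to 0.163 over 11 alternatives. Keap1 passed in no group and lay at 34.1 to 65.0 CPM in tumors, against 40.5 to 59.0 CPM in non-tumor liver.

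Among the detoxification and stress enzymes, Srxn1, which reduces over-oxidized peroxiredoxins, rose most clearly in chow tumors. Srxn1 measured 332, 82.3 and 144 CPM in dHEP chow tumors, against 46.7, 30.8 and 32.7 CPM in dHEP chow non-tumor liver (log2 fold change 2.10 ± 0.52, adjusted p = 0.0041). Srxn1 in FF chow tumors was 166.9, 459.6 and 109 CPM, against 33.1, 47.3 and 31.7 CPM in FF chow non-tumor liver (log2 fold change 2.44 ± 0.52, adjusted p = 0.0012). Srxn1 in dHEP alcohol tumors was 92.7, 127, 38.6 and 166 CPM, against 41.3, 38.1, 37.2 and 45.2 CPM in dHEP alcohol non-tumor liver (log2 fold change 1.19 ± 0.45, adjusted p = 0.062). Every chow tumor lay above every chow non-tumor liver of its genotype, whereas in dHEP alcohol tumor dHEP-549 lay among the non-tumor livers and the test fell short. Srxn1 in FF alcohol tumors was 94.2, 218, 108 and 88.8 CPM, against 62.0, 86.2, 88.2 and 35.2 CPM in FF alcohol non-tumor liver (log2 fold change 0.88 ± 0.45, adjusted p = 0.16). There the lowest tumor only just exceeded the highest non-tumor liver, and the groups did not overlap. With the animal as a block Srxn1 also passed on alcohol, in dHEP (1.19 ± 0.30, adjusted p = 0.046) and in FF (0.88 ± 0.19, adjusted p = 0.01). Hmox1, which breaks down heme, fell in FF alcohol only by this test. Hmox1 in FF alcohol tumors was 19.7, 16.9, 12.4 and 21.2 CPM, against 35.7, 34.4, 29.2 and 33.8 CPM in FF alcohol non-tumor liver (log2 fold change -0.91 ± 0.24, adjusted p = 0.0079). Those 4 non-tumor livers held more Hmox1 than the other 10, which stayed at or below 28.3 CPM, while tumors of the 4 groups spanned 12.4 to 33.9 CPM. Ephx1, the microsomal epoxide hydrolase, also fell in FF alcohol. Ephx1 in FF alcohol tumors was 222, 350.3, 296 and 355 CPM, against 433, 592, 607 and 399.9 CPM in FF alcohol non-tumor liver (log2 fold change -0.73 ± 0.25, adjusted p = 0.033). That call was lost without tumor FF-503 (0.118), tumor FF-581 (0.0631), non-tumor library FF-523 (0.0873) and non-tumor library FF-581 (0.0918), and without the non-tumor livers FF-523 and FF-581 (0.301), with a range of 0.00518 to 0.301 over 13 alternatives. Nqo1, a quinone reductase and the usual reporter of NRF2 activity, passed in no group although 10 of 11 paired tumors held more of it. Nqo1 in dHEP alcohol tumors was 20.03, 19.05, 2.70 and 19.7 CPM, against 9.82, 8.37, 5.96 and 8.22 CPM in dHEP alcohol non-tumor liver (log2 fold change 0.58 ± 0.69, adjusted p = 0.61). Nqo1 in dHEP chow tumors was 76.0, 8.29 and 45.6 CPM, against 9.09, 5.93 and 6.68 CPM in dHEP chow non-tumor liver (log2 fold change 1.99 ± 0.80, adjusted p = 0.065). With the animal as a block the dHEP chow difference passed (adjusted p = 0.027). Tumor dHEP-549 had the least Nqo1 of the 28 libraries, and tumors dHEP-155 and FF-168 the most (76.0 and 76.2 CPM).

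In glutathione synthesis the final enzyme and a subunit of the first moved in opposite directions. Glutathione synthetase, Gss (ENSMUSG00000027610, chromosome 2, 155563181 to 155592810 on GRCm38), rose in all 4 groups. Gss measured 105, 119, 95.0 and 162 CPM in dHEP alcohol tumors, against 65.5, 62.4, 65.6 and 66.4 CPM in dHEP alcohol non-tumor liver (log2 fold change 0.85 ± 0.14, adjusted p = 0.0002). Gss in FF alcohol tumors was 111, 121, 130.4 and 106 CPM, against 66.6, 80.4, 87.3 and 58.9 CPM in FF alcohol non-tumor liver (log2 fold change 0.68 ± 0.14, adjusted p = 0.00096). Gss in dHEP chow tumors was 128, 117 and 145 CPM, against 46.8, 53.6 and 49.2 CPM in dHEP chow non-tumor liver (log2 fold change 1.36 ± 0.16, adjusted p = 3.2e-06). The tumor and non-tumor values did not overlap in any of these groups. Gss in FF chow tumors was 115, 139.9 and 110.3 CPM, against 67.4, 71.9 and 61.7 CPM in FF chow non-tumor liver (log2 fold change 0.85 ± 0.16, adjusted p = 0.00048). Here too each tumor exceeded each non-tumor liver, and the 11 paired animals all had more Gss in the tumor. Gclm, the modifier subunit of glutamate-cysteine ligase, fell in 3 groups. Gclm measured 83.3, 124, 116 and 79.0 CPM in dHEP alcohol tumors, against 174, 181, 154.6 and 161 CPM in dHEP alcohol non-tumor liver (log2 fold change -0.76 ± 0.18, adjusted p = 0.0045). Gclm in FF alcohol tumors was 92.8, 121, 87.1 and 80.3 CPM, against 172, 174, 153 and 129 CPM in FF alcohol non-tumor liver (log2 fold change -0.72 ± 0.18, adjusted p = 0.0048). Gclm in FF chow tumors was 98.0, 124 and 100.3 CPM, against 162, 196 and 147 CPM in FF chow non-tumor liver (log2 fold change -0.64 ± 0.21, adjusted p = 0.023). Every tumor lay below every non-tumor liver in these 3 groups, and the FF chow call was lost without tumor FF-167 (0.0787), tumor FF-169 (0.0667) and non-tumor library FF-158 (0.0927), and without the chow non-tumor livers dHEP-155 and FF-158 (0.101), with a range of 0.000455 to 0.101 over 11 alternatives. Gclm in dHEP chow tumors was 117, 65.9 and 126 CPM, against 154, 139 and 134 CPM in dHEP chow non-tumor liver (log2 fold change -0.52 ± 0.21, adjusted p = 0.066). The values did not overlap there either, but the test fell short. Gclc, the catalytic subunit, passed in no group and spanned 163 to 799 CPM in tumors, against 231 to 488 CPM in non-tumor liver.

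Slc7a11, the cystine importer of the glutathione pathway, spanned 1.64 to 449 CPM in tumors, against 0.317 to 10.1 CPM in non-tumor liver. Slc7a11 measured 36.7, 376 and 17.1 CPM in FF chow tumors, against 0.317, 2.69 and 0.361 CPM in FF chow non-tumor liver (log2 fold change 5.08 ± 1.37, adjusted p = 0.0072). Slc7a11 in dHEP chow tumors was 449, 3.27 and 5.54 CPM, against 2.503, 0.606 and 0.474 CPM in dHEP chow non-tumor liver (log2 fold change 3.52 ± 1.37, adjusted p = 0.057). Slc7a11 in FF alcohol tumors was 5.37, 154, 18.1 and 18.4 CPM, against 1.56, 9.40, 10.1 and 1.01 CPM in FF alcohol non-tumor liver (log2 fold change 2.31 ± 1.18, adjusted p = 0.16). In both chow groups each tumor exceeded each non-tumor liver, and in FF alcohol tumor FF-503 lay among the non-tumor values. Slc7a11 in dHEP alcohol tumors was 2.72, 27.9, 2.42 and 1.64 CPM, against 0.406, 0.665, 0.574 and 3.48 CPM in dHEP alcohol non-tumor liver (log2 fold change 1.47 ± 1.18, adjusted p = 0.42). Here tumor dHEP-520 alone stood above the rest, and tumor dHEP-550 lay below its own non-tumor liver. Of the comparisons without a block the FF chow one passed, and it was lost without tumor FF-168 (0.0575), with a range of 0.00542 to 0.0575 over 11 alternatives; fold changes on log2(CPM + 1) understate the change of so low a gene. With the animal as a block Slc7a11 passed in FF alcohol (adjusted p = 0.011) and in dHEP chow (0.044).

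Among redox enzymes the main change was in Gpx1, the abundant cytosolic glutathione peroxidase (ENSMUSG00000063856, chromosome 9, 108338903 to 108340343). Gpx1 measured 364, 629, 584 and 427 CPM in dHEP alcohol tumors, against 1278, 1436, 1478 and 1578 CPM in dHEP alcohol non-tumor liver (log2 fold change -1.55 ± 0.21, adjusted p = 3.4e-05). Gpx1 in FF alcohol tumors was 330.2, 415, 233 and 497 CPM, against 1508, 1304, 1437 and 1781 CPM in FF alcohol non-tumor liver (log2 fold change -2.07 ± 0.21, adjusted p = 1.1e-06). Gpx1 in dHEP chow tumors was 205, 264 and 203 CPM, against 1221, 1283 and 1270.0 CPM in dHEP chow non-tumor liver (log2 fold change -2.49 ± 0.24, adjusted p = 6.1e-07). Tumors and non-tumor liver did not overlap, and the highest tumor of the 14 held 629 CPM, against 1221 CPM in the lowest non-tumor liver. Gpx1 in FF chow tumors was 198, 332 and 366 CPM, against 1226, 1439 and 1313 CPM in FF chow non-tumor liver (log2 fold change -2.19 ± 0.24, adjusted p = 4.1e-06). Gpx1 had the smallest p of the members in each of the 4 groups. The thioredoxin Txn1 fell in FF alcohol. Txn1 in FF alcohol tumors was 105, 126, 93.3 and 89.96 CPM, against 148, 180.2, 168.7 and 152 CPM in FF alcohol non-tumor liver (log2 fold change -0.65 ± 0.18, adjusted p = 0.0088). Each tumor lay below each non-tumor liver in that group, and 10 of 11 paired tumors held less; without the non-tumor livers FF-523 and FF-581 the adjusted p was 0.0904, an alternative chosen after seeing the data. Gsr, Gpx3, Gpx4, Txnrd1 and Prdx1 passed in no group; with the animal as a block Gsr, the glutathione reductase, was lower in FF alcohol (-0.47 ± 0.11, adjusted p = 0.017). Gpx4, the peroxidase of membrane lipids, spanned 180.0 to 389.9 CPM in tumors, against 185 to 373 CPM in non-tumor liver, and Prdx1 445 to 955 CPM, against 639.7 to 909 CPM. Gpx3, the secreted form, was between 0.579 and 11.9 CPM in 13 tumors and at 63.3 CPM in tumor dHEP-165 of dHEP chow. Gpx2, the form of gut epithelium, did not pass the filter in non-tumor liver and passed elsewhere only through tumors dHEP-155 (21.9 CPM), FF-168 (12.5 CPM) and FF-167 (1.29 CPM).

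No GST member rose in tumors by the test without a block, and 2, 4, 4 and 3 of 16 fell in dHEP alcohol, FF alcohol, dHEP chow and FF chow. Of all genes, 12.9%, 13.9%, 17.2% and 21.2% were called higher and 7.54%, 10.6%, 10.7% and 9.55% lower in these groups. With the animal as a block, in the 3 groups that allow it, 3, 0 and 1 GST members were higher and 1, 5 and 6 lower in dHEP alcohol, FF alcohol and dHEP chow. With that block 12.8%, 35.2% and 17.2% of all genes were called in these 3 groups, counted in either direction. The GST members higher with the block were Gsta1, Gstm3 and Gstp2 in dHEP alcohol and Gsta1 in dHEP chow. Median-of-ratios scaling moved the share of called genes that were higher to 49.5%, against 63.0% as reported, in dHEP alcohol, to 49.1% against 61.8% in dHEP chow and to 53.3% against 69.0% in FF chow, and no called member changed sign. Mgst1, a membrane-bound transferase and peroxidase (ENSMUSG00000008540, chromosome 6, 138140316 to 138156755), was the GST with the smallest p in each group. Mgst1 measured 648, 1416, 1213 and 1063 CPM in dHEP alcohol tumors, against 3087, 2953, 2581 and 3411 CPM in dHEP alcohol non-tumor liver (log2 fold change -1.52 ± 0.22, adjusted p = 6.4e-05). Mgst1 in FF alcohol tumors was 696, 1034, 521 and 833 CPM, against 3476, 3833, 3303 and 2680.1 CPM in FF alcohol non-tumor liver (log2 fold change -2.14 ± 0.22, adjusted p = 1.2e-06). Mgst1 in dHEP chow tumors was 695, 469.7 and 698 CPM, against 3315, 2726 and 3289 CPM in dHEP chow non-tumor liver (log2 fold change -2.34 ± 0.25, adjusted p = 1.2e-06). No tumor reached the lowest non-tumor liver. Mgst1 in FF chow tumors was 757, 634 and 661 CPM, against 2275, 2129 and 2707 CPM in FF chow non-tumor liver (log2 fold change -1.79 ± 0.25, adjusted p = 3.4e-05). The 11 paired tumors all held less Mgst1 than their non-tumor liver. Mgst3, at 6.61 to 16.4 CPM in tumors, against 5.57 to 33.4 CPM in non-tumor liver, passed in no group.

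**Figure D3:**
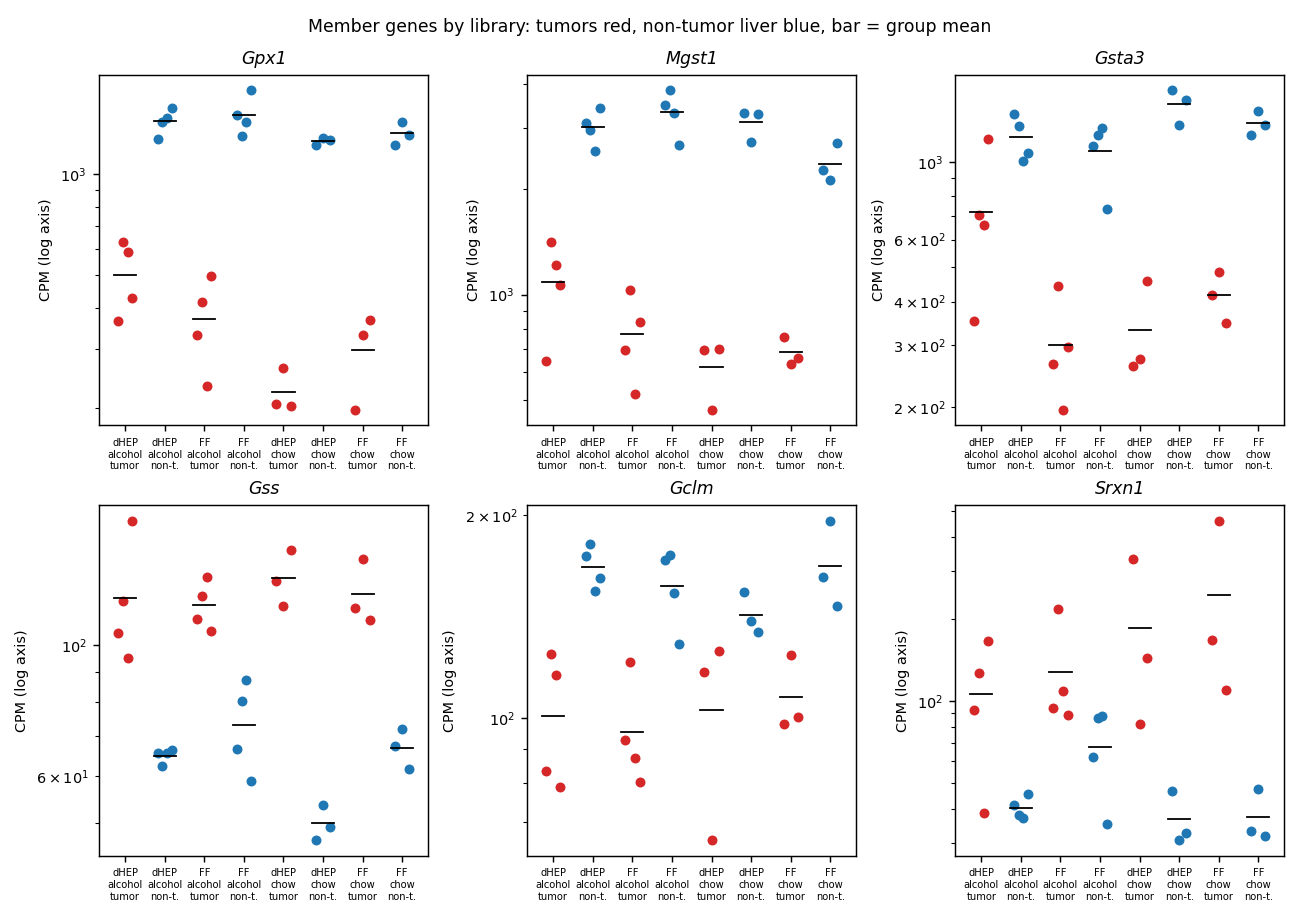
CPM of 6 members in each library on a log axis that differs between panels, with tumors in red, non-tumor liver ("non-t.") in blue and a bar at the group mean. Gpx1, Mgst1 and Gclm were lower and Gss higher in the tumors of every group, whereas Srxn1 in FF alcohol tumors came close to its non-tumor values.

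Of the alpha class, Gsta3, the most abundant alpha GST per kilobase, fell in all 4 groups. Gsta3 measured 353, 707, 662 and 1158 CPM in dHEP alcohol tumors, against 1368, 1265, 1008 and 1058 CPM in dHEP alcohol non-tumor liver (log2 fold change -0.82 ± 0.28, adjusted p = 0.037). Gsta3 in FF alcohol tumors was 266, 443, 197 and 296 CPM, against 1111, 1189.5, 1249 and 732 CPM in FF alcohol non-tumor liver (log2 fold change -1.86 ± 0.28, adjusted p = 3.8e-05). Gsta3 in dHEP chow tumors was 263, 274 and 458 CPM, against 1596, 1269 and 1504 CPM in dHEP chow non-tumor liver (log2 fold change -2.17 ± 0.32, adjusted p = 3.4e-05). Tumor dHEP-550 of dHEP alcohol lay among the non-tumor livers; elsewhere the groups did not overlap. Gsta3 in FF chow tumors was 419, 485 and 348 CPM, against 1193, 1395 and 1275 CPM in FF chow non-tumor liver (log2 fold change -1.63 ± 0.32, adjusted p = 0.00061). The dHEP alcohol call was lost without tumor dHEP-518 (0.163), tumor dHEP-520 (0.0561), tumor dHEP-549 (0.0568), non-tumor library dHEP-518 (0.101), non-tumor library dHEP-520 (0.0866) and non-tumor library dHEP-550 (0.0523), and with no filter on low values (0.0565) and with the animal as a block (0.155), with adjusted p of 0.00606 to 0.163 over 12 alternatives, while it held in the other 3 groups in each alternative run. Gsta2 fell in FF alcohol, dHEP chow and FF chow, and the 11 paired tumors all held less of it. In dHEP alcohol tumors it was 8.19, 18.0, 5.38 and 20.9 CPM, against 56.7, 35.5, 23.4 and 22.3 CPM in non-tumor liver. Those values did not overlap, but the test fell short, also with the animal as a block (-1.40 ± 0.39, adjusted p = 0.062). Gsta2 measured 2.79, 7.32, 2.12 and 3.72 CPM in FF alcohol tumors, against 38.2, 29.9, 43.5 and 10.7 CPM in FF alcohol non-tumor liver (log2 fold change -2.60 ± 0.60, adjusted p = 0.0026). Gsta2 in dHEP chow tumors was 9.85, 1.28 and 1.78 CPM, against 27.9, 25.0 and 53.2 CPM in dHEP chow non-tumor liver (log2 fold change -3.07 ± 0.69, adjusted p = 0.0021). Gsta2 in FF chow tumors was 2.52, 33.6 and 6.70 CPM, against 39.1, 77.2 and 33.5 CPM in FF chow non-tumor liver (log2 fold change -2.28 ± 0.69, adjusted p = 0.015). Tumor FF-168 reached the FF chow non-tumor range, and that call was lost without tumor FF-167 (0.118), tumor FF-169 (0.0502) and non-tumor library FF-158 (0.0641), and without the chow non-tumor livers dHEP-155 and FF-158 (0.0718), with a range of 0.000579 to 0.118 over 11 alternatives. Gsta1 passed in no group, with log2 differences of 1.88 ± 0.75 in dHEP alcohol, 0.45 ± 0.75 in FF alcohol, 2.27 ± 0.87 in dHEP chow and 2.25 ± 0.87 in FF chow. With the animal as a block, which leaves these differences as they are, it passed in dHEP alcohol (adjusted p = 0.012) and dHEP chow (0.028). Windows of Gsta1 and Gsta2 occur in each other and also in Gm3776 and Gm10639, and the sum of the pair alone was formed. Gsta1 plus Gsta2 gave 95.6 ± 31.5 CPM in dHEP alcohol tumors, against 57.9 ± 29.1 CPM in non-tumor liver (SD, n = 4 each). In FF alcohol the sum was 57.7 ± 40.2 CPM in tumors, against 75.6 ± 40.1 CPM in non-tumor liver (SD, n = 4 each). In chow the sum was 129.6 ± 182 CPM in dHEP tumors, against 47.0 ± 16.1 CPM in dHEP non-tumor liver, and 126 ± 79.3 CPM in FF tumors, against 73.9 ± 42.4 CPM in FF non-tumor liver (SD, n = 3 each). The sum leaves out Gm3776 and Gm10639 and was not tested, and the split of reads between these genes is uncertain. Gsta4, which conjugates the lipid peroxidation product hydroxynonenal, passed in no group, at 9.52 to 125 CPM in tumors, against 30.3 to 75.4 CPM in non-tumor liver.

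The mu class varied widely between libraries of the same tissue. Gstm1, the most abundant of the class, spanned 595.3 to 4728 CPM in tumors, against 785 to 2551 CPM in non-tumor liver. The 5 mu members together gave 1728 ± 419 CPM in dHEP alcohol tumors, against 1654 ± 356 CPM in non-tumor liver, and 1495 ± 995 CPM in FF alcohol tumors, against 2089.6 ± 967 CPM in non-tumor liver (SD, n = 4 each). On chow they gave 3231 ± 2313 CPM in dHEP tumors, against 1908 ± 93.4 CPM in non-tumor liver, and 1736 ± 743 CPM in FF tumors, against 1965 ± 728 CPM in non-tumor liver (SD, n = 3 each). The highest tumor was dHEP-165 of dHEP chow, with 4728 CPM of Gstm1, and the lowest was dHEP-164 of the same group, with 595.3 CPM. Gstm6 was the mu gene that fell, in dHEP chow. Gstm6 in dHEP chow tumors was 41.4, 45.1 and 65.9 CPM, against 101, 93.4 and 100.2 CPM in dHEP chow non-tumor liver (log2 fold change -0.97 ± 0.35, adjusted p = 0.042). The groups did not overlap, but the call was lost without tumor dHEP-155 (0.154), tumor dHEP-164 (0.0899), non-tumor library dHEP-155 (0.0944), non-tumor library dHEP-164 (0.0786) and non-tumor library dHEP-165 (0.0989), and with no filter on low values (0.0617), without the chow non-tumor livers dHEP-155 and FF-158 (0.104) and without tumors dHEP-155 and FF-168 together (0.156), with a range of 0.015 to 0.156 over 12 alternatives. Gstm2, Gstm3 and Gstm4 passed in no group. With the animal as a block Gstm3 passed in dHEP alcohol (1.71 ± 0.35, adjusted p = 0.03), Gstm4 in FF alcohol (-0.54 ± 0.16, adjusted p = 0.039) and Gstm2 in dHEP chow (-1.23 ± 0.34, adjusted p = 0.047).

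In the pi class, Gstp1, which is strongly expressed in male mouse hepatocytes, passed in no group. Gstp1 in dHEP alcohol tumors was 679, 926, 606 and 1273 CPM, against 885, 1223, 2256 and 2390.3 CPM in dHEP alcohol non-tumor liver (log2 fold change -0.90 ± 0.38, adjusted p = 0.1). Gstp1 in FF chow tumors was 698, 1528 and 993 CPM, against 787, 441 and 1297 CPM in FF chow non-tumor liver (log2 fold change 0.41 ± 0.44, adjusted p = 0.51). Its lowest value of the 28 libraries, 441 CPM, was in FF-158 non-tumor liver, the library that stood apart on sex-biased genes; their part in this value was not tested. Gstp2 was far lower and spanned 6.06 to 382 CPM in tumors, against 5.49 to 71.0 CPM in non-tumor liver, with the highest value in dHEP alcohol tumor dHEP-550; its reads are hard to separate from those of Gstp1. It passed in no group, but with the animal as a block it passed in dHEP alcohol (2.52 ± 0.48, adjusted p = 0.024). Gstp1 plus Gstp2 gave 1029 ± 446 CPM in dHEP alcohol tumors, against 1717 ± 771 CPM in non-tumor liver. In FF alcohol the sum was 789 ± 245 CPM, against 1365 ± 532 CPM (SD, n = 4 each). On chow it was 921 ± 170 CPM, against 1244 ± 580 CPM, in dHEP and 1179 ± 561 CPM, against 863 ± 420 CPM, in FF (SD, n = 3 each). The sum was not tested. Of the theta class, Gstt3 fell in FF alcohol. Gstt3 in FF alcohol tumors was 10.2, 14.3, 27.2 and 11.2 CPM, against 57.3, 53.1, 61.3 and 20.3 CPM in FF alcohol non-tumor liver (log2 fold change -1.54 ± 0.44, adjusted p = 0.013). Tumor FF-581 overlapped non-tumor liver FF-595, and without the non-tumor livers FF-523 and FF-581 the adjusted p was 0.141, an alternative chosen after seeing the data. Gstt3 also passed in dHEP chow with the animal as a block (-1.35 ± 0.36, adjusted p = 0.045). Gstt1, at 95.5 to 239 CPM in tumors, against 121 to 239 CPM in non-tumor liver, and Gstt2 passed in no group.

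Marker genes of other cell types and of liver zones also differed between the tissues, and in bulk RNA fewer cells of a type and less RNA per cell cannot be told apart. Pericentral hepatocyte markers, from the zone that also metabolizes ethanol through Cyp2e1, summed to 175 to 3316 CPM in tumors, against 9115 to 13437 CPM in non-tumor liver, and 5, 6, 6 and 5 of 6 were called lower in dHEP alcohol, FF alcohol, dHEP chow and FF chow. Male-biased genes were called lower for 5, 4, 4 and 4 of 6, with sums of 554 to 15253 CPM in tumors, against 572 to 15527 CPM in non-tumor liver. Female-biased genes summed to 93.6 to 659 CPM in tumors (median 288), against 5.09 to 1293 CPM in non-tumor liver (median 40.2). Biliary and progenitor markers summed to 7.38 to 3166 CPM in tumors (median 153), against 22.5 to 104 CPM in non-tumor liver (median 27.4). Most of their highest sum, in tumor dHEP-155, was Spp1 (3142 CPM). Kupffer cell markers were lower for 3, 3, 4 and 0 of 5, with sums of 35.0 to 351 CPM in tumors, against 168.6 to 506 CPM in non-tumor liver. Erythroid markers were lower for 1 of 3 in each group, with sums of 92.4 to 715 CPM in tumors, against 195 to 532 CPM in non-tumor liver. Periportal markers were lower for 1, 3, 4 and 2 of 6, tumor markers higher for 2, 3, 3 and 4 of 4, and markers of recruited macrophages higher for 0, 0, 1 and 4 of 5. The part of these markers in the changes of Gpx1, Mgst1, Gsta3 and Gss was not tested.

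Tumors differed widely from each other within their groups. Slc7a11 reached 449 CPM in tumor dHEP-155 (dHEP chow), 376 CPM in tumor FF-168 (FF chow) and 154 CPM in tumor FF-523 (FF alcohol), and was at most 36.7 CPM in the other 11. The same 3 tumors held the highest values of Srxn1 (332, 459.6 and 218 CPM), Gclc (793, 799 and 513 CPM), Txnrd1 (267, 206 and 189.6 CPM) and Nqo1 (76.0, 76.2 and 50.8 CPM) among the 14 tumors. These 5 genes are cystine import, the rate-limiting step of glutathione synthesis and enzymes of thiol and quinone reduction, and they were picked for this description after their values were seen. The 3 tumors come from 3 of the 4 groups, so no group as a whole was high. Tumor dHEP-155 was the highest tumor for 8 of 34 members (23.5%), against 28% of all genes, and FF-168 for 7 (20.6%), against 9.09% of all genes, while FF-523 was the highest for 0 of 34, against 4.07% of all genes. Gclm and Gss, which belong to the same pathway, lay above their tumor medians in these 3 tumors but were highest in other tumors. Gclm read 117, 124 and 121 CPM (median of the 14 tumors 99.2, highest 126 CPM in dHEP-165). Gss read 128, 139.9 and 121 CPM (median 117.6, highest 162 CPM in dHEP-550). In dHEP alcohol, tumor dHEP-550 was the highest tumor for 7 members (20.6%), against 15.3% of all genes, among them Gsta3, Gstm2, Gstp2 and Gstt3, and had the lowest Slc7a11 and Gclc of the tumors.

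**Figure D4:**
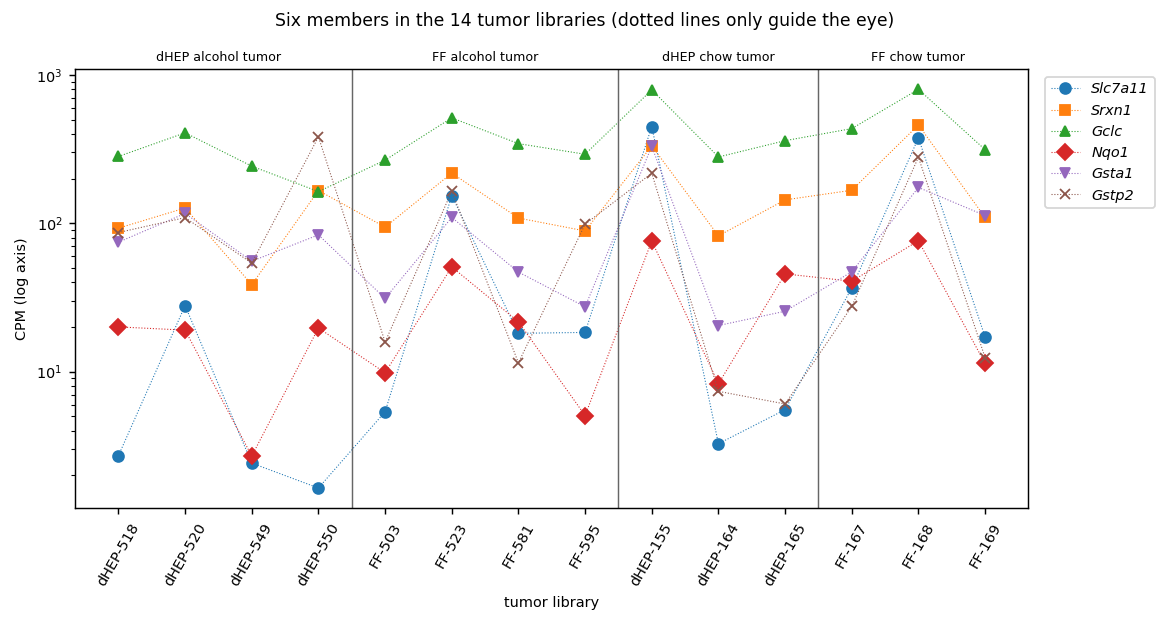
CPM of 6 members in each of the 14 tumor libraries, on a log axis, with dotted lines only to guide the eye. Slc7a11, Srxn1, Gclc and Nqo1 were high together in FF-523, dHEP-155 and FF-168, while Gstp2 was highest in dHEP-550, where Slc7a11 was lowest.

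Loss of hepatocyte Il17ra was compared with FF within each diet and tissue. The test called 0 members in alcohol tumors, chow tumors, alcohol non-tumor liver and chow non-tumor liver, as it called 0% of all genes in each (limma, adjusted p). At an unadjusted p below 0.05 there were 2 of 34, 0 of 34, 4 of 33 and 2 of 33 members, against 6.31%, 2.86%, 8.51% and 4.65% of all genes. In alcohol tumors the smallest p was for Gsta3, at 353, 707, 662 and 1158 CPM in dHEP, against 266, 443, 197 and 296 CPM in FF (log2 difference 1.20 ± 0.33, adjusted p = 0.65). Gstt3 followed, at 37.6, 29.4, 21.4 and 122 CPM in dHEP tumors, against 10.2, 14.3, 27.2 and 11.2 CPM in FF tumors (1.44 ± 0.49). Both overlapped between the genotypes, through tumor dHEP-518 for Gsta3 and tumor dHEP-549 for Gstt3. Gsta2 (1.43 ± 0.68) and Mgst1 (0.48 ± 0.26) came next. Gstt1 was the single member whose alcohol tumors did not overlap, at 195, 185, 201 and 175 CPM in dHEP, against 153, 146, 166 and 151 CPM in FF; 3.54% of all genes did not overlap there. In chow tumors the 4 smallest p were for Gsta4 (-1.24 ± 0.60), Gstt2 (-0.58 ± 0.29), Gpx3 (1.52 ± 0.81) and Gstt1 (-0.41 ± 0.25), with adjusted p of 0.9996 each.

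In alcohol non-tumor liver the 4 members of smallest p were Hmox1, Txnrd1, Srxn1 and Slc7a11, each with a lower mean in dHEP mice. Hmox1 read 22.9, 19.9, 22.4 and 24.3 CPM in dHEP, against 35.7, 34.4, 29.2 and 33.8 CPM in FF (log2 difference -0.55 ± 0.16, adjusted p = 0.38). Txnrd1, the thioredoxin reductase, read 112, 111, 118 and 129.7 CPM in dHEP, against 135, 149.8, 134 and 156.6 CPM in FF (-0.28 ± 0.10). These 2 did not overlap between the genotypes, as 3.91% of all genes did not. Srxn1 read 41.3, 38.1, 37.2 and 45.2 CPM in dHEP, against 62.0, 86.2, 88.2 and 35.2 CPM in FF (-0.65 ± 0.24), and Slc7a11 0.406, 0.665, 0.574 and 3.48 CPM, against 1.56, 9.40, 10.1 and 1.01 CPM (-1.30 ± 0.59). Both were high in FF-523 and FF-581, the non-tumor libraries with the highest tumor marker sums; the part of those markers was not tested, and 0 members were called without both libraries as well. In chow non-tumor liver the 4 smallest p were for Gss (-0.42 ± 0.13), Mgst1 (0.39 ± 0.17), Gclm (-0.23 ± 0.13) and Gpx3 (0.33 ± 0.23). Gss was 46.8, 53.6 and 49.2 CPM in dHEP, against 67.4, 71.9 and 61.7 CPM in FF, and Mgst1 was 3315, 2726 and 3289 CPM, against 2275, 2129 and 2707 CPM. These 2 did not overlap, as 11.5% of all genes did not (adjusted p = 0.99 and 0.99).

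The alcohol diet was compared with chow within each genotype and tissue, and again the test called 0 members. Of all genes, 0.00757% were called in dHEP tumors, 0% in FF tumors, 0.656% in dHEP non-tumor liver and 0.577% in FF non-tumor liver. At an unadjusted p below 0.05 there were 7 of 34, 3 of 34, 2 of 33 and 7 of 33 members, against 10.9%, 5.44%, 13.1% and 14% of all genes. Gstm6, a mu-class GST, had lower values on alcohol in both genotypes of non-tumor liver. They were 66.2, 48.8, 36.5 and 40.5 CPM on alcohol, against 101, 93.4 and 100.2 CPM on chow, in dHEP mice (log2 difference -1.05 ± 0.30, adjusted p = 0.13). FF mice had 52.5, 49.6, 59.2 and 19.1 CPM on alcohol, against 97.4, 93.3 and 87.3 CPM on chow (-1.14 ± 0.30, adjusted p = 0.10). Neither genotype overlapped between the diets, nor did FF tumors, at 37.9, 39.5, 40.5 and 26.5 CPM on alcohol, against 75.6, 87.4 and 58.9 CPM on chow (-1.02 ± 0.32). The diets did overlap in dHEP tumors, at 36.4, 48.6, 34.8 and 103 CPM on alcohol, against 41.4, 45.1 and 65.9 CPM on chow. The shares of all genes lower on alcohol without overlap were 12.9% in dHEP non-tumor liver, 5.11% in FF non-tumor liver and 9.13% in FF tumors. Without FF-595, whose Gstm6 was lowest, Gstm6 and Srxn1 passed in FF non-tumor liver.

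In FF non-tumor liver the smallest p was for Hmox1, at 35.7, 34.4, 29.2 and 33.8 CPM on alcohol, against 18.1, 21.6 and 21.3 CPM on chow (log2 difference 0.69 ± 0.17, adjusted p = 0.083). The diets did not overlap for Hmox1, nor for Txnrd1 (0.30 ± 0.11), as 9.3% of all genes did not. Mgst1 (0.48 ± 0.16) and Srxn1 (0.78 ± 0.26) followed Gstm6 in p. In dHEP non-tumor liver Gss read 65.5, 62.4, 65.6 and 66.4 CPM on alcohol, against 46.8, 53.6 and 49.2 CPM on chow (0.38 ± 0.12, adjusted p = 0.19), without overlap, as for 17.3% of all genes. Gclm (0.23 ± 0.12) and Gstt2 (0.36 ± 0.20) were the next 2. The genotype comparison on alcohol and the FF diet comparison share the 4 FF alcohol non-tumor libraries, so their Hmox1, Txnrd1 and Srxn1 differences are not independent.

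**Figure D5:**
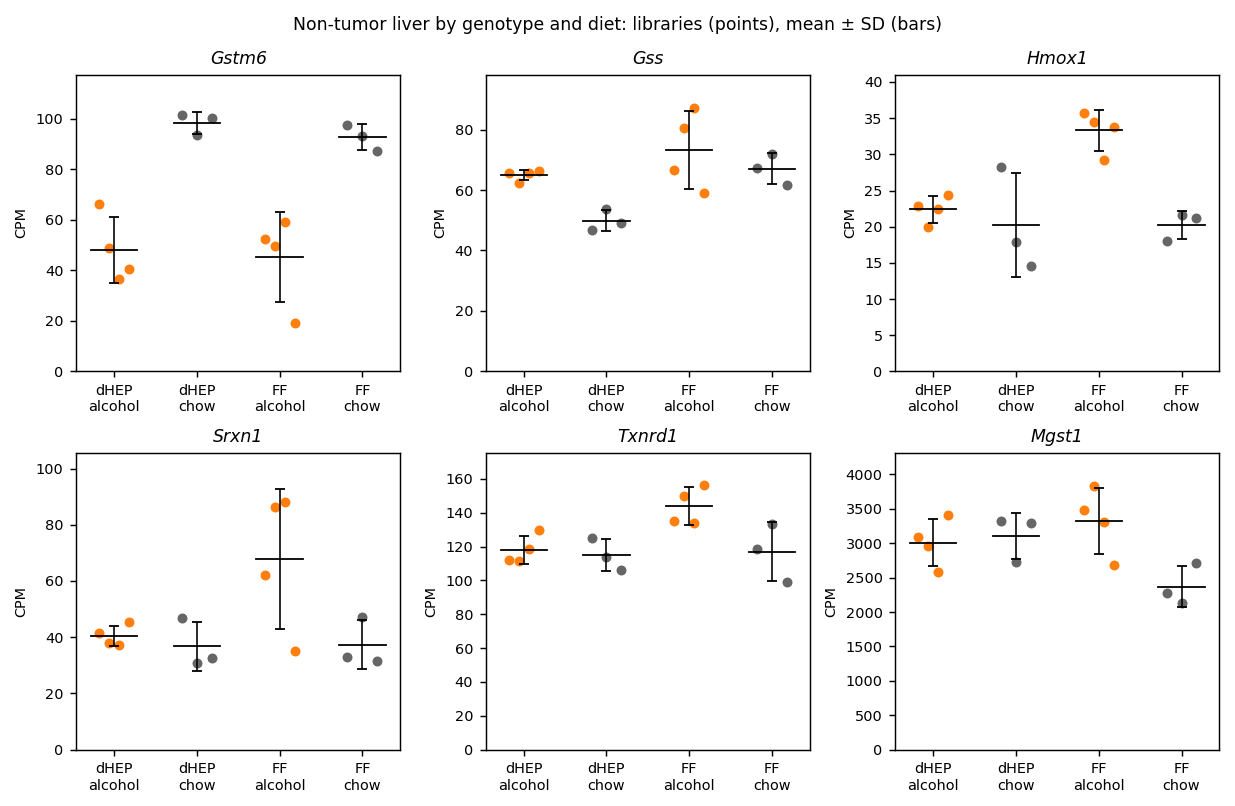
CPM of 6 members in non-tumor liver by genotype and diet (alcohol in orange, chow in gray), with points for libraries, bars for means and whiskers for the standard deviation (n = 4 on alcohol, 3 on chow). Gstm6 values on alcohol lay below those on chow in both genotypes, and Hmox1 was highest in FF alcohol livers, 29.2 to 35.7 CPM.

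In dHEP tumors the smallest p between the diets was for Gpx1, at 364, 629, 584 and 427 CPM on alcohol, against 205, 264 and 203 CPM on chow (log2 difference 1.13 ± 0.29, adjusted p = 0.22), a difference that missed the threshold. Gstm4 (-1.46 ± 0.47), Gstt2 (0.81 ± 0.27) and Gsta3 (1.04 ± 0.36) were next. Gpx1 and Gstt2 were the members without overlap there, against 5.66% of all genes. Without tumor dHEP-164, Gpx3 and Gstm4 passed. In FF tumors the smallest p was for Gstt3, at 10.2, 14.3, 27.2 and 11.2 CPM on alcohol, against 34.1, 95.5 and 52.0 CPM on chow (log2 difference -1.86 ± 0.53, adjusted p = 0.80). Gstm6, Keap1 (-0.45 ± 0.19) and Gstp1 (-0.54 ± 0.30) followed, and Gstt3, Gstm6 and Keap1 did not overlap, against 10.9% of all genes.

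Whether the effects differed between groups was tested as interactions. The 6 interactions (genotype by diet in each tissue, diet by tissue in each genotype and genotype by tissue on each diet) called 0 members and 0% of all genes. At an unadjusted p below 0.05 there were 6 of 34 members for genotype by diet in tumors and 2 of 33 in non-tumor liver, against 4.95% and 6.88% of all genes. For diet by tissue there were 7 of 34 in dHEP and 4 of 34 in FF, against 6.42% and 5.93%, and for genotype by tissue 1 of 34 on each diet, against 1.97% on alcohol and 3.12% on chow. The smallest p in dHEP was for Gsta3, whose log2 fold change in tumors was less negative on alcohol than on chow by 1.36 ± 0.42 (adjusted p = 0.60). A member that passed in some groups only, such as Srxn1 in chow tumors or Hmox1 in FF alcohol, is therefore not shown to differ between them. Comparing each animal's tumor minus non-tumor difference, an alternative chosen after seeing the data, called 0 members and 0% of all genes for diet by tissue in dHEP, as for genotype by tissue on alcohol. At an unadjusted p below 0.05 there were 6 and 4 of 33 members, against 4.81% and 3.23% of all genes.

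Other genes of the pathway were taken from 3 further lists. For the counts of each list, the shares of all genes called higher were 12.9% in dHEP alcohol, 13.9% in FF alcohol, 17.2% in dHEP chow and 21.2% in FF chow. Called lower in the same order were 7.54%, 10.6%, 10.7% and 9.55% of all genes. Of 30 other NRF2 targets and partners, 3 rose and 4 fell in dHEP alcohol tumors, 5 rose and 9 fell in FF alcohol, 8 rose and 1 fell in dHEP chow and 6 rose and 1 fell in FF chow. The small MAF partners Mafk (0.67 ± 0.23 in dHEP alcohol, 0.84 ± 0.23 in FF alcohol, 1.07 ± 0.26 in dHEP chow and 0.97 ± 0.26 in FF chow) and Maff rose in all 4 groups. A further small MAF, Mafg, fell in dHEP alcohol and FF alcohol. Bach1, the repressor that competes with NRF2 for the same elements, rose in 3 (0.77 ± 0.25 in dHEP alcohol, 0.91 ± 0.25 in FF alcohol and 0.83 ± 0.29 in dHEP chow) and was at 0.73 ± 0.29 in FF chow. Also higher were Akr1b8 and Slc48a1 in FF alcohol, Slc48a1, Osgin1, Pgd, G6pdx and Abcc4 in dHEP chow, and Slc48a1, G6pdx, Cbr3 and Pgd in FF chow. Also lower were Abcc3, Aox1 and Akr7a5 in dHEP alcohol, Akr7a5 in dHEP chow and Ces1g in FF chow. In FF alcohol Taldo1, Akr7a5, Ftl1, Aox1, Me1, Ces1g, Blvrb and Ugdh were lower. Of 7 other GST genes tested, 2 rose and 2 fell in dHEP alcohol, 1 and 2 in FF alcohol, 1 and 2 in dHEP chow and 2 and 3 in FF chow. Gstm5 rose (1.02 ± 0.24 in dHEP alcohol, 0.67 ± 0.24 in FF alcohol, 0.97 ± 0.27 in dHEP chow and 1.08 ± 0.27 in FF chow) and Gstk1, a GST of mitochondria and peroxisomes, fell (-1.15 ± 0.33 in dHEP alcohol, -1.98 ± 0.33 in FF alcohol, -2.49 ± 0.38 in dHEP chow and -1.60 ± 0.38 in FF chow) in all 4 groups. Gstz1 fell in FF alcohol, dHEP chow and FF chow, and Gsto1 in dHEP alcohol and FF chow. Gstp3 rose in dHEP alcohol and Hpgds in FF chow. Of 25 other glutathione and antioxidant enzymes tested, 2 rose and 8 fell in dHEP alcohol, 3 and 11 in FF alcohol, 3 and 12 in dHEP chow and 5 and 11 in FF chow. Those that fell in all 4 groups included Glo1, which clears methylglyoxal (-1.09 ± 0.16 in dHEP alcohol, -1.53 ± 0.16 in FF alcohol, -1.91 ± 0.19 in dHEP chow and -1.44 ± 0.19 in FF chow), the superoxide dismutases Sod1 and Sod2, catalase (Cat), Prdx6, Hagh and Glrx. Ggct, which breaks down gamma-glutamyl peptides, rose in all 4 (1.13 ± 0.27 in dHEP alcohol, 0.98 ± 0.27 in FF alcohol, 1.44 ± 0.32 in dHEP chow and 0.88 ± 0.32 in FF chow).

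In the genotype comparisons 0 genes of these 3 lists were called, and in the diet comparisons the calls were Cbs and Cth, the transsulfuration enzymes that supply cysteine. In dHEP non-tumor liver Cth averaged 206 ± 41.1 CPM on alcohol, against 477 ± 90.8 CPM on chow (SD, n = 4 and 3; log2 fold change -1.21 ± 0.24, adjusted p = 0.042). In FF non-tumor liver it averaged 183 ± 65.3 CPM on alcohol, against 515 ± 67.2 CPM on chow (SD, n = 4 and 3; -1.55 ± 0.24, adjusted p = 0.02). Cbs fell by 0.87 ± 0.16 in dHEP (adjusted p = 0.028) and by 0.93 ± 0.16 in FF non-tumor liver (adjusted p = 0.024) on the log2 scale. These were 2 of 25 genes of the list, both lower, in each genotype, against 0.656% of all genes called in dHEP and 0.577% in FF. Without the chow non-tumor livers dHEP-155 and FF-158, an alternative chosen after seeing the data, the diet comparison called 6 genes in all in dHEP and 0 in FF, against 83 and 73, so the FF calls of Cbs and Cth were lost there.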

How the data were processed

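Liver RNA of 28 libraries in 8 groups was sequenced. The authors deposited gene-level CPM values; the submitters' processing notes name STAR 2.5.1a, RSEM 1.3.0 and GRCm38, while the annotation release and the strand setting are not given in the sources used here. The labels name polyA RNA but also a stranded total RNA kit, so the RNA fraction is not settled. The estimated depth was 9570000 to 17820000 reads, and 84.8% to 86.9% of low values (at most 20 reads) fell within 0.1 of a whole read, too few for a count model. Symbols came from GENCODE M21 for 21653 of 22187 genes. The closest pair of the 28 libraries (Pearson r = 0.9913) came from different groups, so none was treated as a duplicate. Replicates are animals by their label numbers.

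Differences were tested with limma 3.58.1 (R 4.3.3; moderated variances with a mean trend) after adding a pseudocount of 1 and taking log2. Genes needed 1 CPM in 3 of the fitted libraries; p-values were adjusted by Benjamini-Hochberg over all tested genes, with a threshold of 0.05, and the procedure was checked on simulated data. Genotype and diet were tested in the 14 libraries of a tissue, tumor against non-tumor liver and tissue interactions in all 28, so that groups share an estimate of spread. Called members are named in order of p, and where fewer than 3 were called, the 4 of smallest p are given. The members and gene lists were chosen with earlier results of these data known. Same-numbered tumor and non-tumor libraries were taken as the same animal; the deviations of such pairs from their group means had r = -0.107 to 0.251 in dHEP alcohol, 0.16 to 0.356 in FF alcohol and 0.073 to 0.187 in dHEP chow. Alternatives were a pseudocount of 0.5, no filter, median-of-ratios scaling, leaving out each library and the animal as a block. Sequences are from RefSeq (GRCm38.p6).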

Additional observations from a re-analysis of the deposited data

Results flagged for a closer look

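In groups of 4 libraries, a member was listed when its highest or lowest library lay far from the other 3 by Dixon's test on CPM. Of 135 such groups checked, 14 were listed. Chance gives about 1 in 20 only for normally distributed values, which was not checked here. Members measured in the same library are also not independent, so the 14 are not shown to exceed chance. Tumors FF-523 and dHEP-550 account for 8 of them. Tumor FF-523, in FF alcohol, held 154 CPM of Slc7a11, 218 CPM of Srxn1, 189.6 CPM of Txnrd1, 2675 CPM of Gstm1 and 162 CPM of Gstm3, against at most 18.4, 108, 106, 1018 and 62.7 CPM in the other FF alcohol tumors. Tumor dHEP-550 held 159.5 CPM of Gstm2, 382 CPM of Gstp2 and 122 CPM of Gstt3, against at most 51.3, 109 and 37.6 CPM in the other dHEP alcohol tumors. In the same group, tumor dHEP-520 held 27.9 CPM of Slc7a11 and tumor dHEP-549 only 2.70 CPM of Nqo1, against 19.05 to 20.03 CPM in the other 3.

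Among dHEP alcohol non-tumor livers, dHEP-550 held the most Gpx4 (275 CPM) and Slc7a11 (3.48 CPM), and dHEP-518 the most Gstm2 (75.4 CPM) and Gstt3 (83.8 CPM). Of 203 interaction tests of members, 0 passed (limma, adjusted p), with 21 at an unadjusted p below 0.05.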

How the results depend on the processing

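All genotype comparisons kept 0 called members in every alternative run. Leaving out each library in turn gave 0 to 2 called members for diet in dHEP tumors (2 without dHEP-164) and in FF non-tumor liver (2 without FF-595), and 0 to 0 for diet in FF tumors and in dHEP non-tumor liver. For tumor against non-tumor liver it gave 4 to 6 members in dHEP alcohol, 6 to 18 in dHEP chow, 9 to 11 in FF alcohol and 7 to 9 in FF chow. The dHEP chow count of 7 moved to 11 under median-of-ratios scaling and to 13 with the animal as a replicate block; the cause was not tested. The block gave 8 in dHEP alcohol and 14 in FF alcohol, and 0 for diet by tissue in dHEP and for genotype by tissue on alcohol, the last 2 added after seeing the data. The animal block could not be used in FF chow, where the tissues come from different animals. It could not be used between genotypes or diets either, because they share no animal. Gpx1, Mgst1 and Gss passed in every alternative run in all 4 groups, and no called member changed direction in any. Median-of-ratios scaling moved the median log2 fold change of all genes by -0.12 in dHEP chow and -0.15 in FF chow tumors and by 0.10 for diet in dHEP tumors, and the share of higher calls for diet in dHEP non-tumor liver to 51.3%, against 28.9%. Alternatives without FF-523 and FF-581, without dHEP-155 and FF-158 non-tumor liver, or without tumors dHEP-155 and FF-168, chosen after seeing the data, kept each count of members within 1.5 times. Over all genes, the diet comparison of FF non-tumor liver moved from its 73 calls to 31 with no filter, 150 with median-of-ratios scaling and 9 without FF-523 and FF-581, and the animal block gave 1601, 4476 and 2149 calls in dHEP alcohol, FF alcohol and dHEP chow tumors, against 2754, 3315 and 3769; without tumors dHEP-155 and FF-168 the dHEP chow count was 2469. Depth limits Gpx2, Slc7a11 and Gpx3 most, where 1 read is worth up to 0.104 CPM.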

Other observations

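Among the non-tumor livers, FF-595 held the lowest value of 16 of 34 members (47.1%), against 20.7% of all genes, including 4 of 4 alpha, 5 of 5 mu and 3 of 3 theta GST genes, while its Gpx1 and Txnrd1 were the highest of the tissue (1781 and 156.6 CPM). Gstm3 read 7.54 CPM there, against 30.4 CPM or more in the other 13 non-tumor livers, and Gsta1 5.92 CPM. The tumor of the same animal held the lowest tumor value of 5 members (14.7%), 4 of them mu GST genes, against 7.3% of all genes. FF-158 non-tumor liver held the highest value of 11 members (32.4%), against 20.3% of all genes, among them Mgst3 at 33.4 CPM, against at most 16.8 CPM in the other 13, and the lowest Gstp1 and Mgst1.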
